A study of Mus musculus with 21 samples.

Results

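Mouse embryonic stem (ES) cells with a control guide RNA were compared after Wnt3a and activin A treatment and in medium with leukemia inhibitory factor (LIF). The members were fixed by their labels alone: 3 control libraries of the differentiation experiment and 3 control libraries of the LIF experiment, 6 of the 21 samples given for the series. The parent line is V6.5, an established hybrid mouse ES line, and the genotype label of all 6 libraries is WT. The labels do not say whether the libraries of a group came from separate cultures, so the spread between them may be technical.

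The Wnt3a and activin A cells had been trypsinized, seeded on gelatin in serum-free N2B27 medium (1% N2, 2% B27 lacking vitamin A) and kept there for about 2 days. N2B27 as described also held the kinase inhibitor Y-27632 at 10 µM. The medium was then exchanged for N2B27 containing Wnt3a at 50 ng/ml and activin A at 10 ng/ml, and the protocol gives 24 h as the usual time of harvest. The LIF cells were in SL medium, with 15% serum and LIF at 100 U/ml, and ES cells of the study were maintained on mitotically inactivated embryonic fibroblasts. The groups therefore differ in Wnt3a, activin A, LIF, serum, N2 and B27 supplements, substrate, feeder cells and Y-27632 at once, and the contribution of each cannot be told apart. A library of N2B27 without the ligands is not among those analysed here. A further 3 libraries of untreated V6.5 ES cells, whose genotype label is Cdk1as/as, stand in a table of their own and are given beside the comparison.

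Wnt3a stabilises β-catenin, which joins the DNA-binding factors Tcf and Lef at target genes. Activin A signals through receptors that phosphorylate Smad2 and Smad3, the branch that Nodal uses in the embryo. At gastrulation these signals act on the epiblast at the primitive streak, where cells leave pluripotency for mesoderm and definitive endoderm. LIF acts through Il6st, Lifr and Stat3, and holds mouse ES cells in the naive state that resembles the epiblast before implantation.

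Values are FPKM (fragments counted per transcript length and sequencing depth), rescaled so that the median ratio between libraries was the same in all 6. The difference of a gene is its mean log2(FPKM + 1) under Wnt3a and activin A minus that in LIF, which understates the change of low genes. A gene was called higher or lower where that difference reached 2 in size, a 4-fold change on this scale, and the libraries of the groups did not overlap. A gene was counted as switched on where every LIF library was under 1 FPKM and every Wnt3a and activin A library was at 5 FPKM or more, and as switched off in the reverse case. No p-value is given between the groups, because their tables were scaled separately by the authors. Of 53796 genes listed, 13051 averaged 1 FPKM or more across the 6 libraries and were considered. Their median difference was -0.02. In 9619 of the 13051 the libraries of the groups did not overlap, so a lack of overlap alone was common.

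Under Wnt3a and activin A, 314 genes were called higher, 2.41% of the genes considered, and 551 were called lower, 4.22%. The counts of called list members below are to be read beside these shares. Lower calls made up 63.7% of all calls. That split depended on the scaling: with all libraries scaled to the same summed FPKM, 196 genes were called higher and 838 lower, so that 81.0% of calls were lower, and the median of all genes moved to -0.36. By the stricter definition, 61 genes switched on (0.467%) and 102 switched off (0.782%), of which 52 and 78 are protein-coding. Libraries of a group ranked genes alike, with Spearman correlations across genes of 0.952 to 0.954 within the Wnt3a and activin A group and 0.957 to 0.961 within the LIF group, against 0.810 to 0.823 between groups. Depth per library is unknown, since the tables hold no counts. The summed FPKM ran from 1087970 to 1144370 under Wnt3a and activin A and from 840269 to 895128 in LIF. The microRNA gene Mir6236, a short gene of high and uncertain FPKM, took 2.83% to 5.16% of the sum under Wnt3a and activin A and 5.25% to 7.80% in LIF.

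**Figure D1:**
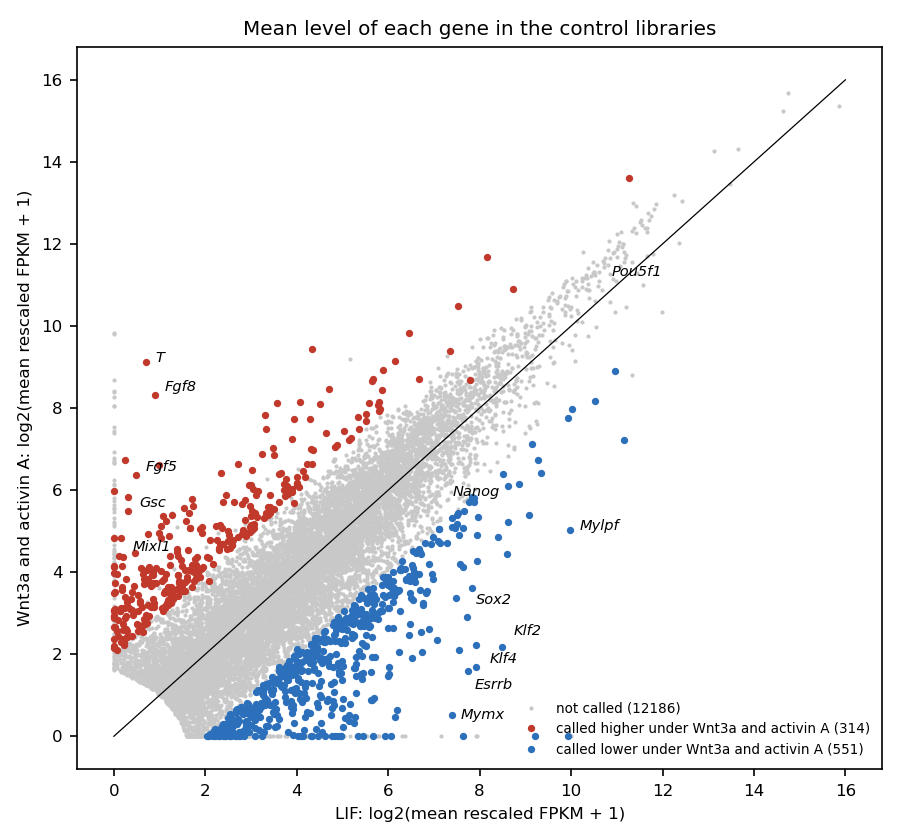
Each point is 1 gene, with its mean over the 3 Wnt3a and activin A libraries on the vertical axis and over the 3 LIF libraries on the horizontal axis, both as log2(rescaled FPKM + 1), and with the line of equal level. The 314 genes called higher (red) include T and Fgf8 far from the line, the 551 called lower (blue) include Klf2, Klf4, Esrrb and Mymx, and Pou5f1 lies near the line at the upper end; other grey points far from the line had a library that overlapped the other group or a difference under 2.

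The labels were checked against defining markers. The summed level of T, Mixl1, Eomes, Gsc and Evx1 was 665 to 710 FPKM in the Wnt3a and activin A libraries, against 3.28 to 4.19 FPKM in the LIF libraries and 4.20 to 5.01 FPKM in the separate ES cell libraries. The summed level of 8 ES cell markers was 2399 to 2510 FPKM under Wnt3a and activin A and 3307 to 3318 FPKM in LIF, against 2079 to 2113 FPKM in the separate ES cells, with none of the 8 under 1 FPKM in any of these groups. Pou5f1 made up most of the treated sum, with a mean of 1866 FPKM. Its means were 1642 FPKM in LIF and 1030 FPKM in the separate ES cells. Sox2, Zfp42 and Esrrb were called lower, and the other members were not called. The treated sum lay above that of the separate ES cells, so it does not mark undifferentiated cells. The 9 fibroblast markers, which would report carried-over feeder cells, summed to 23.3 to 26.7 FPKM under Wnt3a and activin A and 15.9 to 26.8 FPKM in LIF, and 27.6 to 36.2 FPKM in the separate ES cells. Of the 9, 5 averaged under 1 FPKM in each of the compared groups, and most of the sum was Thy1. Lum was listed at 0 in every library of both groups, and Dcn in every LIF library. An exact 0 in these tables can be a failed estimate: 6 of the 13 mitochondrially encoded genes, which every cell uses, were listed at 0 in all LIF libraries. Genes at 0 are therefore given as listed at 0. Among the fibroblast markers Col1a1, the main fibrillar collagen chain of fibroblasts, stood at 2.55, 3.34 and 2.67 FPKM under Wnt3a and activin A and 0.949, 1.33 and 1.64 FPKM in LIF. The libraries are of bulk RNA, so more cells expressing a gene and more RNA per cell cannot be told apart.

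Primitive streak genes were higher together under Wnt3a and activin A. Of 16 listed streak and mesendoderm genes, 14 were measured, 11 were called higher, none was called lower, and 7 met the definition of switched on; the median difference of the list was 3.78, against -0.02 for all genes. T (brachyury), the T-box factor of nascent mesoderm and the gene with the largest difference among those called higher, lies at chr17:8434423-8442496 (ENSMUSG00000062327; all gene positions are for GRCm38). T measured 585, 535 and 557 FPKM under Wnt3a and activin A and 0.46, 0.598 and 0.821 FPKM in LIF. Its difference was 8.43 ± 0.10 (SE), and the 3 libraries of separate ES cells gave 0.551, 0.385 and 0.387 FPKM, as low as in LIF. The LIF libraries were thus all under 1 FPKM, while under Wnt3a and activin A the gene stood at the 98.1th percentile of the genes considered.

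Mixl1, a homeobox factor of streak mesendoderm at chr1:180693043-180697034, measured 28.1, 27.6 and 26.2 FPKM under Wnt3a and activin A and 0.0703, 0.0903 and 0.178 FPKM in LIF, a difference of 4.67 ± 0.051 (SE). Gsc (goosecoid), a homeobox factor of the anterior streak and organizer at chr12:104471209-104473236, measured 53.2, 57 and 57.4 FPKM under Wnt3a and activin A and 0.38, 0.178 and 0.14 FPKM in LIF, a difference of 5.53 ± 0.092 (SE). In both genes every LIF library lay under 1 FPKM and the treated libraries were close to each other. Eomes, a T-box factor of mesoderm and endoderm, measured 32.6, 33.5 and 33.1 FPKM under Wnt3a and activin A and 3.28, 2.95 and 2.12 FPKM in LIF, so that it was present at a low level in LIF, and its difference was 3.18 ± 0.14 (SE). Its locus as listed also covers another measured gene. Evx1, a homeobox factor of the posterior streak, measured 11.9, 11.7 and 13.1 FPKM under Wnt3a and activin A and 0, 0.047 and 0.0277 FPKM in LIF. Its antisense transcript Evx1os was also switched on, and without a stated strand in the counting the reads of these overlapping genes cannot be told apart.

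Lhx1, a LIM homeobox factor of the anterior streak, measured 8.57, 7.17 and 7.3 FPKM under Wnt3a and activin A and 0.209, 0.126 and 0 FPKM in LIF, a difference of 2.97 ± 0.11 (SE). Its level was the lowest of the called factors of this list. Foxa2, a forkhead factor of anterior streak and endoderm, measured 37.8, 32.6 and 41 FPKM under Wnt3a and activin A and 1.18, 1.13 and 1.27 FPKM in LIF, a difference of 4.11 ± 0.10 (SE). The first mesoderm factor to follow the streak, Mesp1, measured 1.06, 0.925 and 0.968 FPKM under Wnt3a and activin A and 0.103, 0.0588 and 0 FPKM in LIF. The groups did not overlap in Mesp1, but its mean over the libraries was under the 1 FPKM minimum and it was not among the genes considered.

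**Figure D2:**
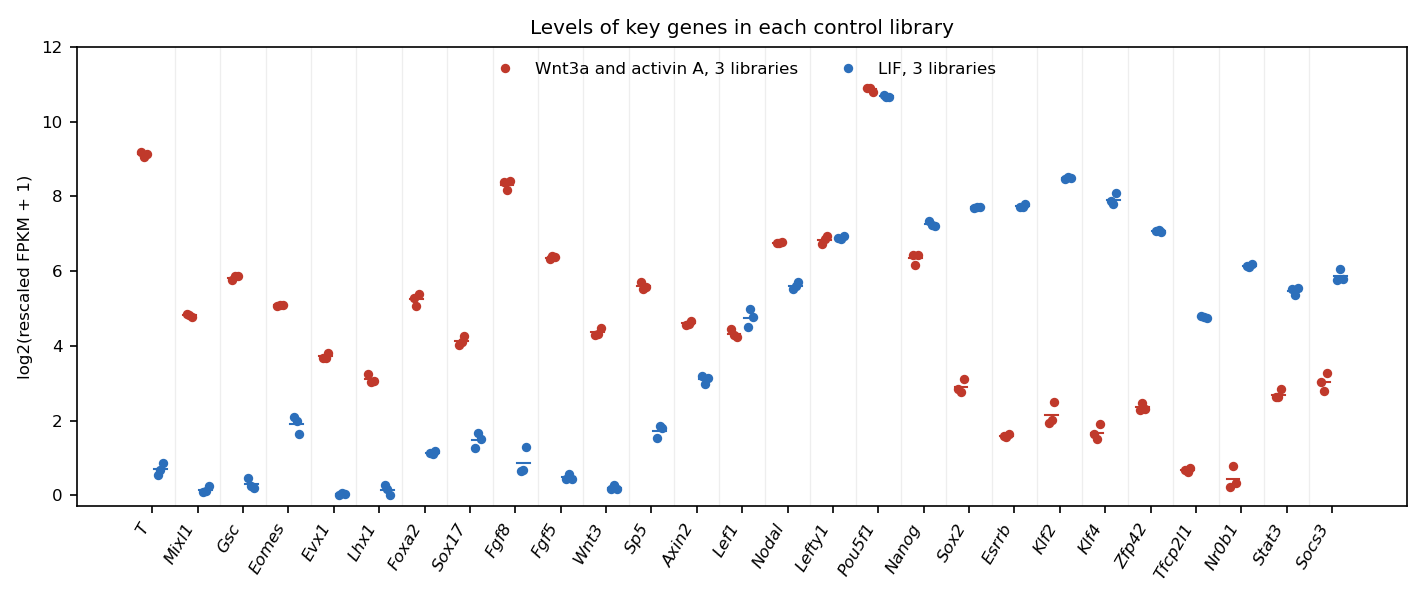
Levels of 27 genes as log2(rescaled FPKM + 1) in each library, with Wnt3a and activin A (red) left of LIF (blue) for each gene; points are libraries, 3 per group, and short lines are group means. T, Mixl1, Gsc, Evx1 and Lhx1 at the left are at 3 to 9 under Wnt3a and activin A and under 1 in LIF, Lef1 and Lefty1 stand at like levels in both, and Esrrb, Klf2, Klf4, Zfp42, Tfcp2l1 and Nr0b1 at the right show the reverse of the streak genes.

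The ligands that pattern the streak were among the largest differences. Fgf8, a fibroblast growth factor that migrating streak cells need, measured 331, 288 and 338 FPKM under Wnt3a and activin A and 0.566, 0.592 and 1.45 FPKM in LIF, a difference of 7.45 ± 0.22 (SE). The third LIF library was above 1 FPKM, so that Fgf8 missed the definition of switched on. Fgf5, a growth factor that marks the epiblast after implantation, measured 78.8, 83.2 and 82 FPKM under Wnt3a and activin A and 0.365, 0.495 and 0.348 FPKM in LIF, a difference of 5.88 ± 0.053 (SE). Of 23 measured FGF ligands, receptors and feedback genes, Fgf8 and Fgf5 were called higher and Fgf4, Spry4, Spred2 and Fgf1 were called lower. Fgf4, the autocrine FGF of naive ES cells, measured 2.182, 1.86 and 1.5 FPKM under Wnt3a and activin A and 62.8, 68.5 and 61.3 FPKM in LIF, a difference of -4.52 ± 0.11 (SE). Spry4, a feedback inhibitor of FGF signalling, measured 5.31, 5.36 and 5.36 FPKM under Wnt3a and activin A and 48.6, 45.8 and 45.9 FPKM in LIF. The separate ES cells gave 8.87, 8.23 and 8.41 FPKM for Spry4, much nearer to the treated libraries than to the LIF libraries. The median of the FGF list was -0.30, and its counts stand beside 2.41% of all genes called higher and 4.22% called lower.

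Of 9 measured Wnt ligands, 5 were called higher and none lower, with a median difference of 2.17. Wnt3, the ligand needed for the streak to form in the mouse, measured 18.5, 18.9 and 21.5 FPKM under Wnt3a and activin A and 0.115, 0.219 and 0.129 FPKM in LIF, a difference of 4.16 ± 0.075 (SE). Wnt8a, another ligand of the streak, measured 20.2, 23.3 and 20.2 FPKM under Wnt3a and activin A and 0.572, 0.326 and 0.241 FPKM in LIF, a difference of 4.02 ± 0.12 (SE). Both switched on, as did Wnt11, while Wnt5b and Wnt4 were called higher from LIF levels between 0.184 and 1.09 FPKM. Wnt5b measured 13.6, 13.1 and 16.4 FPKM under Wnt3a and activin A and 0.596, 0.724 and 1.09 FPKM in LIF, and shares its listed locus with another measured gene.

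Known Wnt target genes split, beside 2.41% of all genes called higher and 4.22% called lower. Of 20 measured targets and antagonists, 3 were called higher, 1 was called lower, and the median difference was -0.05, close to that of all genes; over the 5 other scalings it ran from -0.40 to 0.22, so that it has no fixed sign. Sp5, a zinc-finger factor and common Wnt target, measured 51.7, 45.4 and 46.5 FPKM under Wnt3a and activin A and 1.9, 2.62 and 2.5 FPKM in LIF, a difference of 3.87 ± 0.11 (SE). Dkk1, a secreted Wnt antagonist, switched on, with 8.75, 9.96 and 8.62 FPKM under Wnt3a and activin A and 0.264, 0.255 and 0.367 FPKM in LIF. Fzd10, a Wnt receptor, was called higher at 15.3, 14.8 and 15.1 FPKM under Wnt3a and activin A and 2.67, 2.25 and 2.22 FPKM in LIF. These genes had a low level in LIF in common, while their non-overlapping libraries were required by the call.

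Axin2, the negative feedback gene often used as a readout of Wnt signalling, measured 22.7, 23.1 and 24.5 FPKM under Wnt3a and activin A and 8.08, 6.91 and 7.82 FPKM in LIF. Its libraries did not overlap, but its difference of 1.51 ± 0.069 (SE) was under the size needed for a call. Lef1, which encodes a partner of β-catenin, measured 20.8, 18.7 and 17.7 FPKM under Wnt3a and activin A and 21.6, 30.4 and 26.5 FPKM in LIF. The Lef1 libraries did not overlap either, and the difference was -0.43 ± 0.15 (SE). Against the separate ES cells the same treated libraries gave a Lef1 difference of 0.77, of the other sign. The target list shifted likewise with the undifferentiated libraries used: its median was 0.94 against the separate ES cells. Sfrp1, a secreted Wnt antagonist, was called lower, with 3.1, 2.94 and 2.81 FPKM under Wnt3a and activin A and 19.11, 19.5 and 17.3 FPKM in LIF.

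The sequences just upstream of Sp5, Dkk1 and T are shown because these well-known Wnt targets were called higher and hold the Tcf and Lef core there; they were chosen after the matches were seen. Each runs from 250 bases before the start of the gene to the base before it, on the strand of the gene, from RefSeq for GRCm38.p6. Sp5 lies on the plus strand at chr2:70474673-70474922, Dkk1 on the minus strand at chr19:30549497-30549746 and T on the plus strand at chr17:8434173-8434422. Capitals mark the core CTTTGA or its reverse complement TCAAAG, with the longer core CTTTGAT marked whole where present.
Sp5: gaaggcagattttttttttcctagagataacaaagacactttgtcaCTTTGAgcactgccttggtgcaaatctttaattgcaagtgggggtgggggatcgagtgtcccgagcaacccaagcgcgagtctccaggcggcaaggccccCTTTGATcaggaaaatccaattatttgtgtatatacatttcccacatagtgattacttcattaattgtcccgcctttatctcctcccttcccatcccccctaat
Dkk1: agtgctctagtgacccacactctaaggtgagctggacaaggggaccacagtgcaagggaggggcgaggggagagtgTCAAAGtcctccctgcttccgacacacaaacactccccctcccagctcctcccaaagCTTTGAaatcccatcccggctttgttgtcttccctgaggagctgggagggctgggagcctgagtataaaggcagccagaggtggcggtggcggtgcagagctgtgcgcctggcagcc
T: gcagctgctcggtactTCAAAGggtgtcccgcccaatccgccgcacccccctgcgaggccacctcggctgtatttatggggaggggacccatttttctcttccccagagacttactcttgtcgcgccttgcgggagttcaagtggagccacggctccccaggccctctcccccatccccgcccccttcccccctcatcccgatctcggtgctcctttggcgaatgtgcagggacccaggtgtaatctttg
In Sp5 the first base of the core lies 204 and 104 bases before the start, and the nearer match is the longer core. In Dkk1 the matches lie 174 and 117 bases before the start on opposite strands, and in T a single match lies 234 bases before it.

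The longer core CTTTGAT was found on either strand in 9 of 199 called higher genes with a promoter in the RefSeq table (4.52%), in 10 of 373 called lower genes (2.68%) and in 252 of 9488 of all genes considered (2.66%). Among genes switched on it was in 3 of 40 (7.50%) and among genes switched off in 2 of 66 (3.03%). Over all 27025 genes with a promoter in the table the share was 3.72%, and counted over all 32851 promoters it was 3.21%. The shorter core CTTTGA, which contains every match of the longer, was in 16.1% of called higher genes, 15.5% of called lower genes and 12.3% of genes considered. It was in 15.8% of all genes with a promoter, 25.0% of genes switched on and 21.2% of genes switched off. A match describes these letters in this window and is no evidence of binding.

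Genes of Nodal and activin signalling also split, with 3 of 24 called higher, 3 called lower and a median of -0.45. Of all genes considered 2.41% were called higher and 4.22% lower, and the list was not tested against these shares. Fst (follistatin), which binds and neutralises activin, measured 92.5, 104 and 92.2 FPKM under Wnt3a and activin A and 1.06, 1.15 and 0.755 FPKM in LIF, a difference of 5.62 ± 0.11 (SE). Cer1 (cerberus), a secreted Nodal antagonist, was listed at 0 in every LIF library and measured 7.02, 8.19 and 7.02 FPKM under Wnt3a and activin A. Fst, an antagonist of the added activin A, was thus among the genes called higher.

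Nodal itself measured 106, 108 and 108 FPKM under Wnt3a and activin A and 44.8, 47.4 and 50.9 FPKM in LIF. The libraries did not overlap and the difference was 1.16 ± 0.053 (SE), under the size needed for a call. Over the 5 other scalings it ran from 0.75 to 1.21. Against the separate ES cells the Nodal difference was 2.27, above the size needed for a call. Lefty1, a feedback inhibitor of Nodal, measured 105, 116 and 121 FPKM under Wnt3a and activin A and 117, 115 and 121 FPKM in LIF, and the groups overlapped. Against the separate ES cells, in which Lefty1 measured 52.7, 42.1 and 54.1 FPKM, the Lefty1 difference was 1.19. Inhbb, which encodes an inhibin and activin beta chain, switched off at 0.0214, 0 and 0 FPKM under Wnt3a and activin A against 5.2, 5.35 and 5.44 FPKM in LIF. Skil, a repressor of Smad activity, and Gdf3, a Nodal-related ligand of ES cells, were also called lower, with differences of -2.30 and -2.16.

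Of 15 measured BMP genes 1 was called higher and 1 lower, beside 2.41% and 4.22% of all genes: Msx1, a homeobox BMP target, was called higher and Bmp4, the ligand, was called lower, at 3.53, 3.71 and 3.7 FPKM under Wnt3a and activin A and 23.4, 13.4 and 19.6 FPKM in LIF. With all libraries at the same summed FPKM Msx1 was no longer called and 3 BMP genes were called lower, and with quantile normalization Bmp4 was no longer called. Of 13 measured Notch and somite clock genes, Cited1 (a transcriptional coactivator) and Dll3 (a Notch ligand of presomitic mesoderm) were called higher and the ligand Dll1 was called lower. Cited1 measured 39.2, 39.9 and 44.8 FPKM under Wnt3a and activin A and 1.92, 0.995 and 1.34 FPKM in LIF. Dll1 measured 2.43, 2.05 and 3.001 FPKM under Wnt3a and activin A and 21.8, 26.4 and 26.1 FPKM in LIF, and Dll3 showed the reverse, with 23.5, 26.2 and 24 FPKM under Wnt3a and activin A and 5.91, 3.35 and 3.4 FPKM in LIF. The medians of the BMP and Notch lists, -0.15 and -0.13, changed sign in at least 1 of the 5 other scalings.

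Of 27 early mesoderm genes, 13 were under the minimum level in these libraries; of the 14 measured, 2 were called higher and 4 lower. Aplnr, the apelin receptor of early mesoderm, was the exception in size: it measured 37.6, 25 and 19.8 FPKM under Wnt3a and activin A, 0.0105, 0 and 0 FPKM in LIF and was listed at 0 in all 3 libraries of separate ES cells. Its treated libraries varied more than those of T or Gsc, and its difference was 4.78 ± 0.26 (SE). Dll3 was the other called higher member, and Dll1, Tcf15, Tbx3 and Bmp4 were called lower. Of 38 Hox genes 2 were measured and neither was called. The median of the mesoderm list was 0.21 and turned to -0.23 with libraries scaled to the same sum.

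Definitive endoderm genes were higher in part: 4 of 13 were called higher, none lower, with a median of 1.51. Besides Foxa2 and Cer1 these were Sox17 and Spink1. Sox17, an HMG-box factor that endoderm requires, measured 15.3, 16.3 and 18.2 FPKM under Wnt3a and activin A and 1.39, 2.15 and 1.86 FPKM in LIF, a difference of 2.66 ± 0.13 (SE); the separate ES cells gave 5.68, 4.59 and 5.94 FPKM. Spink1, which encodes a secreted trypsin inhibitor, measured 52.8, 45.6 and 41.4 FPKM under Wnt3a and activin A and 1.54, 1.46 and 2.76 FPKM in LIF, while the separate ES cells gave 22.4, 13.2 and 24.5 FPKM.

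Markers of extraembryonic endoderm moved in the same direction against LIF, and their result depended on which undifferentiated libraries were used. Of 15 measured members, 5 were called higher, 2 with all libraries at the same summed FPKM, and the median was 1.48. Cubn, the endocytic receptor cubilin, measured 11.2, 11.3 and 11 FPKM under Wnt3a and activin A and 1.77, 1.68 and 1.69 FPKM in LIF, but 25.7, 20.6 and 22.9 FPKM in the separate ES cells. Dab2, an endocytic adaptor, measured 43.1, 44 and 41.3 FPKM under Wnt3a and activin A and 10.5, 6.16 and 10.5 FPKM in LIF, but 50.2, 51.5 and 49.96 FPKM in the separate ES cells. Amn, the partner of cubilin, Pth1r, a parathyroid hormone receptor, and Col4a2, a basement membrane collagen chain, were the other called members. With the separate ES cells in place of the LIF libraries the median of the list was -0.31 and no member was called.

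**Figure D3:**
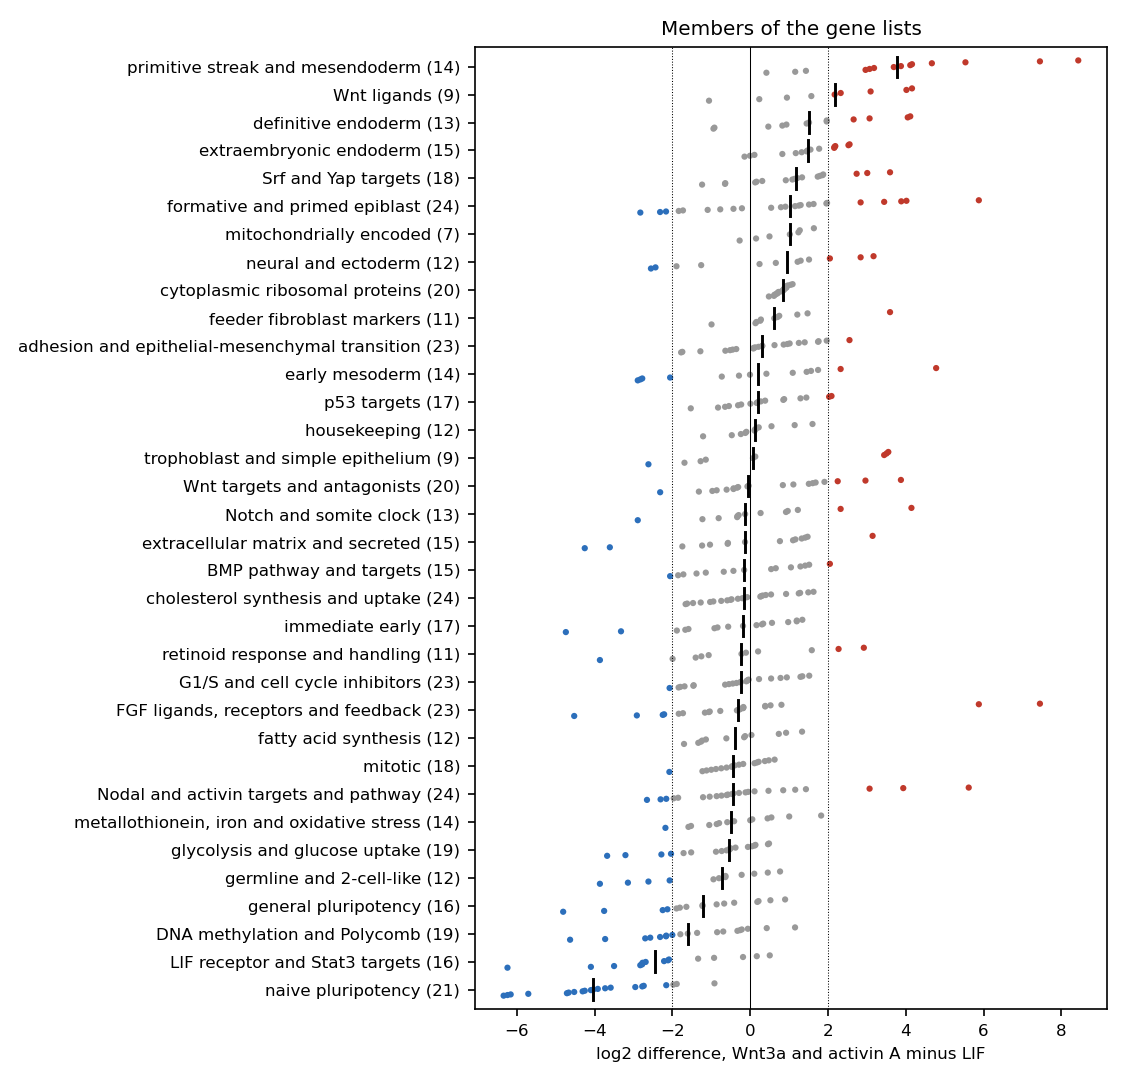
Each row is a gene list with the number of measured members in brackets, and each point is a member's log2 difference, Wnt3a and activin A minus LIF; red members were called higher, blue members lower, and the black bar is the list's median. Streak genes and Wnt ligands stand at the top with medians of 3.78 and 2.17, and naive pluripotency and LIF and Stat3 genes at the bottom with medians of -4.03 and -2.45; dotted lines mark the size of difference needed for a call.

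The naive pluripotency genes were lower as a group. Of 22 listed, 21 were measured, 18 were called lower, none was called higher and 7 switched off, with a median difference of -4.03. Klf2, a Krüppel-like factor of the naive network at chr8:72319062-72321654, measured 2.86, 3.06 and 4.6 FPKM under Wnt3a and activin A and 351, 363 and 359 FPKM in LIF, a difference of -6.34 ± 0.17 (SE). Klf4, a reprogramming factor and Stat3 target at chr4:55527137-55532475, measured 2.09, 1.82 and 2.78 FPKM under Wnt3a and activin A and 233, 222 and 270.2 FPKM in LIF, a difference of -6.24 ± 0.15 (SE). Both remained at a few FPKM under Wnt3a and activin A, so they do not meet the definition of switched off.

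Esrrb, an orphan nuclear receptor that maintains self-renewal, at chr12:86361117-86521628, measured 2.001, 1.92 and 2.13 FPKM under Wnt3a and activin A and 211, 209.7 and 221 FPKM in LIF, a difference of -6.15 ± 0.036 (SE). Its spread within a group was small beside the gap between groups. Zfp42 (Rex1), a zinc-finger marker of naive cells, measured 3.84, 4.56 and 3.96 FPKM under Wnt3a and activin A and 133, 135 and 130.1 FPKM in LIF, a difference of -4.71 ± 0.064 (SE). Nr0b1 (Dax1), a nuclear receptor that binds Pou5f1, switched off at 0.163, 0.712 and 0.258 FPKM under Wnt3a and activin A against 68.8, 68.4 and 71.9 FPKM in LIF. The separate ES cells held less of it, 12.2, 12.3 and 13.1 FPKM, yet more than any treated library.

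Tfcp2l1, a grainyhead-like factor downstream of LIF, switched off at 0.603, 0.542 and 0.662 FPKM under Wnt3a and activin A against 26.9, 26.5 and 25.6 FPKM in LIF, a difference of -4.09 ± 0.037 (SE). Its listed locus also holds another measured gene. Dppa3 (stella), a maternal factor that protects methylated DNA, measured 5.2, 1.68 and 1.71 FPKM under Wnt3a and activin A and 45.5, 39.1 and 40.6 FPKM in LIF. The first of its treated libraries was above the others, and all were below the LIF libraries. Prdm14, a repressor of differentiation, was listed at 0 in every treated library and measured 5.2, 6.18 and 5.63 FPKM in LIF; Tcl1, Nr5a2, Gbx2 and Tet2 were the other members that switched off.

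Nanog was an exception in this list. Nanog, the homeobox factor of the naive network, measured 85.2, 70.2 and 86 FPKM under Wnt3a and activin A and 160.1, 151 and 146 FPKM in LIF. The libraries did not overlap, but the difference of -0.92 ± 0.10 (SE) was under the size needed for a call. Fbxo15 and Klf5 were likewise lower without reaching a call, named here after their values were seen.

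The general pluripotency genes divided. Of 16 members, all measured, 4 were called lower, none higher, and the median was -1.22. Pou5f1 (Oct4), the POU factor at the centre of pluripotency, measured 1908, 1912 and 1779 FPKM under Wnt3a and activin A and 1691, 1610.2 and 1626 FPKM in LIF. Its difference of 0.18 ± 0.040 (SE) turned to -0.20 with libraries scaled to the same sum and to -0.55 with the trend on gene span and level removed, and its direction is therefore not fixed. Sox2, the HMG-box partner of Pou5f1, at chr3:34649995-34652461, measured 6.14, 5.83 and 7.66 FPKM under Wnt3a and activin A and 207, 208 and 211 FPKM in LIF, a difference of -4.81 ± 0.11 (SE). Its listed locus merges 15 listed genes, 2 of which were measured, so reads may be shared with the long noncoding transcript that surrounds it. The other called members were Dppa2, Mycn and Dppa4. Dppa2, a chromatin regulator that acts with Dppa4, measured 0.598, 1.31 and 1.43 FPKM under Wnt3a and activin A and 26.6, 28.9 and 25.6 FPKM in LIF.

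LIF receptor and Stat3 target genes were called lower in 11 of 16 measured cases, none was called higher, and the median was -2.45. The receptor chains were among them: Lifr measured 0.911, 1.61 and 2.01 FPKM under Wnt3a and activin A and 18.3, 15 and 14.5 FPKM in LIF. Il6st, the shared signalling chain, measured 13.6, 14.6 and 4.14 FPKM under Wnt3a and activin A and 69.6, 70.6 and 71.6 FPKM in LIF, with the third treated library well below the others. Stat3 itself measured 5.15, 5.19 and 6.13 FPKM under Wnt3a and activin A and 44.7, 40.2 and 45.5 FPKM in LIF, a difference of -2.78 ± 0.088 (SE). Socs3, the feedback inhibitor that Stat3 induces, measured 7.23, 5.96 and 8.75 FPKM under Wnt3a and activin A and 53.1, 65.3 and 54.2 FPKM in LIF. Mras, a Ras-family gene of ES cells, measured 1.22, 1.37 and 1.94 FPKM under Wnt3a and activin A and 27.9, 25.4 and 28.3 FPKM in LIF. Together with Klf4 and Tfcp2l1, the transducers and their targets were low in the same libraries.

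Genes of the formative and primed epiblast, the stages between naive cells and the streak, were called in both directions: 5 of 24 higher and 3 lower, with a median of 1.03. Fgf5, Wnt8a, Nkx1-2, Krt18 and Sox3 were called higher. Nkx1-2, a homeobox factor of the posterior epiblast, measured 15.7, 13.1 and 14.5 FPKM under Wnt3a and activin A and 0.06002, 0 and 0.0727 FPKM in LIF, in a listed locus that merges 70 genes, 21 of them measured, so its own share of the reads is uncertain. Tcf15, Dnmt3l and Dnmt3a were called lower. Tcf15, a helix-loop-helix factor, measured 12.9, 12 and 12.6 FPKM under Wnt3a and activin A and 93.6, 90.7 and 99.1 FPKM in LIF, whereas the separate ES cells gave 20.3, 22.4 and 20.4 FPKM.

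Of 12 measured neural and ectodermal genes, 3 were called higher and 2 lower, with a median difference of 0.94. Sox3, a relative of Sox2, measured 38.1, 31.2 and 34.3 FPKM under Wnt3a and activin A and 3.91, 3.48 and 4.51 FPKM in LIF. Nes (nestin), an intermediate filament of progenitors, measured 32.5, 33.4 and 31.2 FPKM under Wnt3a and activin A and 2.39, 3.03 and 2.72 FPKM in LIF. Pax6 and Sox21, both neural transcription factors, switched off, with means of 0.459 and 0.456 FPKM under Wnt3a and activin A and 6.91 and 7.52 FPKM in LIF. Sox1, the earliest neural plate marker, measured 0.206, 0.312 and 0.291 FPKM under Wnt3a and activin A and 1.35, 1.82 and 1.67 FPKM in LIF and was under the minimum level. Its libraries did not overlap.

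Of 19 genes of DNA methylation and Polycomb repression, 8 were called lower, where 4.22% of all genes considered were; none was called higher, and the median was -1.60. Tet1, the main DNA-demethylating enzyme of ES cells, measured 2.68, 3.8 and 1.8 FPKM under Wnt3a and activin A and 76.7, 102 and 92.3 FPKM in LIF, a difference of -4.63 ± 0.25 (SE). Tet2, its relative, measured 0.95, 0.321 and 0.202 FPKM under Wnt3a and activin A and 19.2, 21.1 and 15.1 FPKM in LIF. Jarid2 and Mtf2, accessory subunits of Polycomb repressive complex PRC2, had means of 17.3 and 15.1 FPKM under Wnt3a and activin A and 117 and 94.1 FPKM in LIF. Dnmt3a, a de novo DNA methyltransferase, measured 38.8, 49.2 and 44.7 FPKM under Wnt3a and activin A and 183, 216 and 204 FPKM in LIF. Its level in the separate ES cells, 64.5, 69.97 and 61.8 FPKM, was closer to the treated cells.

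Germline genes were called lower in 4 of 12 measured cases and higher in none, beside 4.22% and 2.41% of all genes. Stra8, a meiosis gene induced by retinoic acid, switched off at 0.0867, 0 and 0 FPKM under Wnt3a and activin A against 15.7, 11.7 and 14.8 FPKM in LIF. Mael, a piRNA pathway gene, Tfap2c, an AP-2 factor of germ cells and trophoblast, and Ddx4, the germ cell helicase, had differences of -3.14, -2.61 and -2.07. Of 11 measured retinoid genes 2 were called higher and 1 lower, with a median of -0.22. Cyp26a1, which degrades retinoic acid, switched on at 8.14, 7.38 and 7.79 FPKM under Wnt3a and activin A against 0.305, 0.0401 and 0.142 FPKM in LIF. Stra8 was the only lower call of the retinoid list. With all libraries at the same summed FPKM 1 retinoid gene was called higher and 2 lower. The B27 supplement lacked vitamin A and the LIF medium held serum, and their part in these genes cannot be told apart from that of the ligands.

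Some epithelial and cytoskeletal genes were among the higher calls, which made up 2.41% of all genes considered. The simple keratins Krt8, Krt18 and Krt19, which form the filaments of simple epithelia, were all called higher: Krt8 measured 132, 123 and 136 FPKM under Wnt3a and activin A and 10.1, 9.61 and 10.9 FPKM in LIF. Krt19 measured 98.8, 78.4 and 91.4 FPKM under Wnt3a and activin A and 7.28, 4.93 and 9.23 FPKM in LIF. In the wider trophoblast and simple epithelium list of 9 measured genes these were the 3 higher calls, Tfap2c was the only lower one, and the median was 0.07. The separate ES cells stood between the groups, with 40.4, 30.5 and 41.2 FPKM for Krt8 and 48.6, 42 and 42.4 FPKM for Krt19. Cldn7, a tight junction claudin, measured 288, 273 and 274 FPKM under Wnt3a and activin A and 47.5, 44.1 and 48.4 FPKM in LIF. It was the only call among 23 adhesion and epithelial-mesenchymal transition genes, a share near that of all genes, and the median of that list was 0.31. Tpm1, a tropomyosin gene under Srf, measured 571, 569 and 563 FPKM under Wnt3a and activin A and 70.3, 67.7 and 71 FPKM in LIF, a difference of 3.01 ± 0.022 (SE). Tagln, a smooth muscle actin-binding gene that fibroblasts also express, measured 281, 283 and 252 FPKM under Wnt3a and activin A and 17.6, 24.1 and 23.8 FPKM in LIF, in a listed locus that merges 8 genes. It was the only call among 11 measured fibroblast genes, whose median was 0.62 against LIF and -0.18 against the separate ES cells. In all, 3 of 18 Srf and Yap targets were called higher, with a median of 1.18; Acta1, the third, lies in a locus that merges 210 listed genes, which leaves its value uncertain. Y-27632, which acts on the actin cytoskeleton, was in the differentiation medium, and its part in these genes cannot be told apart from the rest.

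Of 19 glycolysis and glucose uptake genes 4 were called lower, beside 4.22% of all genes, and none higher, with a median of -0.53. Pdk1, which inhibits pyruvate dehydrogenase, measured 20.8, 15.4 and 18.8 FPKM under Wnt3a and activin A and 262, 253 and 221 FPKM in LIF, a difference of -3.68 ± 0.14 (SE). Slc2a3, a glucose transporter, measured 141, 139 and 133 FPKM under Wnt3a and activin A and 606, 525 and 569 FPKM in LIF. The remaining calls were Pfkp and Hk1, both of which encode early enzymes of glycolysis, with differences of -3.21 and -2.28. None of 24 cholesterol genes and none of 12 fatty acid synthesis genes was called. Among metal and stress genes, Mt2, a metallothionein, was the single call of 14, at 214, 207 and 224 FPKM under Wnt3a and activin A and 999, 1010.2 and 920.4 FPKM in LIF. The separate ES cells had 210.2, 267 and 215 FPKM, close to the treated level.

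Immediate early genes gave 2 lower calls of 17 measured, beside 4.22% of all genes. Fosb, an AP-1 subunit, switched off at 0.828, 0.934 and 0.811 FPKM under Wnt3a and activin A against 43.2, 50.05 and 52.8 FPKM in LIF. Fos measured 9.72, 11.5 and 10.6 FPKM under Wnt3a and activin A and 107, 121 and 118 FPKM in LIF, a difference of -3.32 ± 0.086 (SE). Among cell cycle genes the D-type cyclin Ccnd3 was the single call, lower, of 23 genes of G1/S and the checkpoint kinase gene Bub1b the single call, lower, of 18 mitotic genes, at differences of -2.07 and -2.08. These shares are near the 4.22% of all genes called lower, and with all libraries at the same summed FPKM 4 of the G1/S genes were called lower. Of 17 p53 targets, Sfn, an epithelial 14-3-3 protein gene, and Perp, a desmosomal membrane protein gene, were called higher, and Perp was as high in the separate ES cells (41.5, 39.1 and 41.3 FPKM) as under Wnt3a and activin A (37.4, 40.3 and 38.5 FPKM). Neither p53 target was called with all libraries at the same summed FPKM, and 1 was called with quantile normalization or with the values as deposited. In the matrix list of 15 genes, the receptor gene Epha1 was called higher, and Spp1 (osteopontin) and Nid1 (nidogen) were called lower. Spp1 measured 12.8, 11.9 and 8.75 FPKM under Wnt3a and activin A and 234, 231 and 219 FPKM in LIF.

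The leading genes outside these lists had varied roles. Among those higher, Rtl8c, a gene derived from a retrotransposon, measured 113, 103 and 102 FPKM under Wnt3a and activin A and 0.189, 0 and 0.382 FPKM in LIF; its relative Rtl8a also switched on, and near-identical copies in this family can share reads. Alox15, a lipoxygenase gene, measured 42.7, 45.5 and 42.8 FPKM under Wnt3a and activin A and 0.233, 0.143 and 0.324 FPKM in LIF. Igfbp3, a secreted binder of insulin-like growth factors, measured 272, 279.9 and 282 FPKM under Wnt3a and activin A and 10.1, 12.2 and 10.4 FPKM in LIF. Vrtn, known for its part in vertebral number in pigs, Efemp1, a matrix glycoprotein gene, and Ppp4r4, which encodes a phosphatase regulatory subunit, had differences of 4.30, 4.27 and 4.18. Sprr2a3, of the cornified envelope gene family, was listed at 0 in every LIF library and measured 19.4, 15.7 and 15.5 FPKM under Wnt3a and activin A; this family too has close copies.

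Among those lower, Mymx, which encodes the myoblast fusion peptide myomixer, had the largest difference of the genes annotated as protein-coding, with 0.635, 0.637 and 0 FPKM under Wnt3a and activin A and 169, 177 and 156 FPKM in LIF, a difference of -6.92 ± 0.24 (SE). Mylpf, a fast-muscle myosin light chain gene, measured 8.79, 47.8 and 37.6 FPKM under Wnt3a and activin A and 1086, 1028 and 923 FPKM in LIF. The first treated library held far less Mylpf than the others, and all were far below LIF. Hsd17b14, a hydroxysteroid dehydrogenase gene, measured 2.81, 6.1 and 2.16 FPKM under Wnt3a and activin A and 213, 272 and 244 FPKM in LIF. Halr1, a long noncoding RNA, was listed at 0 in every treated library and measured 57.1, 61.8 and 59.96 FPKM in LIF. Jam2, a junctional adhesion molecule gene, Cobl, an actin nucleator gene, Arid5b, a DNA-binding chromatin cofactor gene, and Fam25c had differences of -5.58, -4.81, -4.75 and -4.98.

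The switched genes were set beside the separate ES cell libraries. The 61 genes switched on had median levels of 10.5 FPKM under Wnt3a and activin A, 0.273 FPKM in LIF and 0.864 FPKM in the separate ES cells, and 31 of them were under 1 FPKM in every separate ES cell library. Just 1, the predicted gene Gm42457, was at 5 FPKM or more in all 3. The 102 genes switched off had median levels of 0.354 FPKM under Wnt3a and activin A, 10.7 FPKM in LIF and 9.17 FPKM in the separate ES cells, and 73 of them were at 5 FPKM or more in every separate ES cell library. Wider still, 299 of the 314 genes called higher stood above every separate ES cell library, and 536 of the 551 called lower stood below every one. Fewer reached the size of a call there: 173 of the 314 and 373 of the 551 were also called against the separate ES cells. The 3 treated libraries are the same in both comparisons, so these counts are not independent of the calls.

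By role, the genes switched on held the transcription factors T, Gsc, Mixl1, Lhx1, Evx1, Nkx1-2, Foxb1 and Tfec and the secreted factors Fgf5, Wnt3, Wnt8a, Wnt11, Dkk1, Cer1, Slit3 and Ptn. They also held the receptors Aplnr, Ghr and Il15ra, the mechanically gated channel Piezo2, the metal ion transporter Slc39a8, and the enzymes Alox15, Cyp26a1, Nt5e and Chst15. The genes switched off held the transcription factors Nr0b1, Tfcp2l1, Nr5a2, Gbx2, Prdm14, Insm1, Sox21, Pax6 and Mafa. They also held the oocyte and meiosis genes Khdc3, Ooep, Stra8, Syce1, Rec114, Tex14, Piwil2 and Aurkc, and the metabolic genes Pdk4, Dpys, Hal and Aldh1b1. Those not named in an earlier paragraph are given as members of these sets, after their values were seen. The sets also contain short RNAs and predicted genes, such as Snora62 among those on and Mir1892 among those off, whose FPKM is large because their length is small and which are uncertain for that reason.

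**Figure D4:**
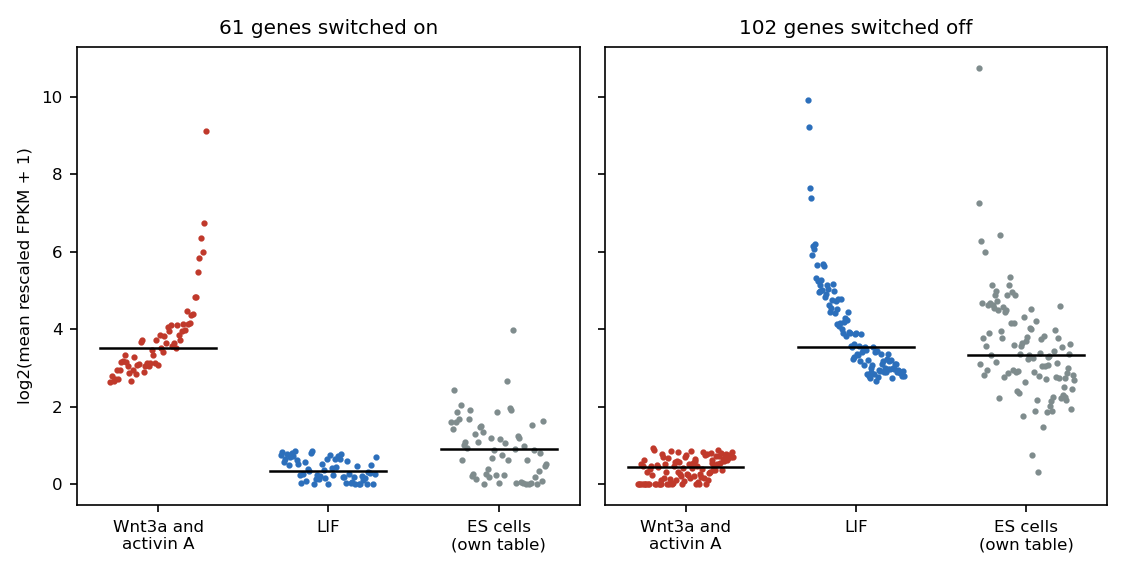
Mean level of each gene switched on (left panel, 61 genes) and switched off (right panel, 102 genes) as log2(rescaled FPKM + 1) under Wnt3a and activin A (red), in LIF (blue) and in the separate ES cells (grey); black bars are medians and genes run from left to right by their difference in each column. By construction the red and blue columns do not meet; the grey column, which the definition did not use, lies near the blue one in the right panel and slightly above it in the left panel.

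The differences also followed gene span and level. Of the genes considered, 12257 (93.9%) had a span in the RefSeq table. The shortest of 10 equal groups had a median difference of 0.53, with 4.24% called higher and 3.26% lower, and the longest group a median of -0.41, with 1.96% called higher and 5.79% lower. Genes in the top group of 10 by level had a median of 0.49. All 20 ribosomal protein genes, which are short and abundant, had a positive difference and none was called; their median of 0.85 became 0.06 with the trend on span and level removed. Among 12 housekeeping genes none was called, and their median was 0.12. The ribosomal protein genes took 5.92% to 6.45% of the summed FPKM under Wnt3a and activin A and 4.42% to 4.68% in LIF. With the trend removed 377 genes were called higher and 506 lower, of which 255 and 413 were also called without that step, and the 30 leading genes were all still called. With all libraries at the same summed FPKM, 7 general pluripotency genes, 5 Nodal and activin genes, 5 formative and primed genes and 4 immediate early genes were called lower, and 1 early mesoderm gene and 1 Notch gene were called higher.

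**Figure D5:**
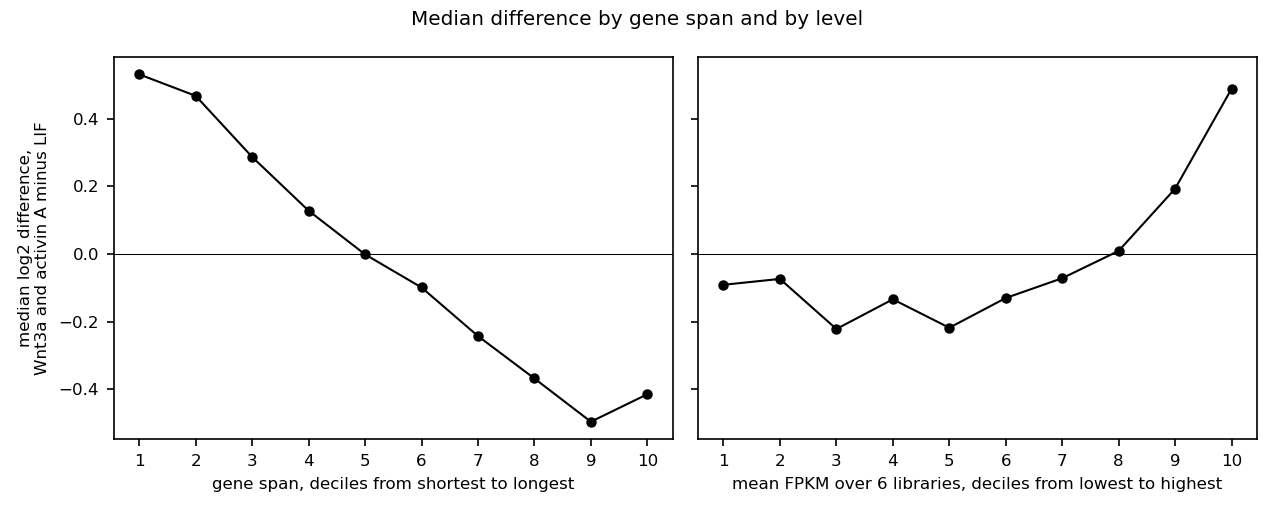
Median log2 difference, Wnt3a and activin A minus LIF, in 10 equal groups of genes by span (left, shortest to longest) and by mean FPKM over the 6 libraries (right, lowest to highest). The medians run from 0.53 in the group of shortest genes to -0.50 in the group next to the longest, and reach 0.49 in the group of highest level.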

How the data were processed

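Gene expression was measured by RNA sequencing in 3 Wnt3a and activin A and 3 LIF control libraries. The authors deposited FPKM values per gene, 1 table per experiment, scaled separately. Per the submitters' processing notes the tools of the series include STAR 2.5.4a, Cufflinks 2.2.1 and Cuffdiff, and the builds mm9 and GRCm38, with no role given; gene positions overlapped GRCm38 RefSeq loci for 99.8% of 37051 symbols matched. No counts were given, so depth is unknown and no count test was used.

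The tables were joined by gene ID, and 27 symbols that a spreadsheet had turned into dates were restored from the IDs. Libraries were rescaled by the median of ratios over 10659 genes (factors 0.988 to 1.042), and differences were taken as log2(FPKM + 1), among genes averaging 1 FPKM or more. The standard error joins the spread of both groups (n = 3 each). Because the groups stand in separate tables, no p-value was computed. The rescaling and the calling were tested on simulated data, with a much smaller pseudocount than the 1 FPKM used for the results. Recovery of low genes at the pseudocount used and the definition of switched genes were not tested. Python 3.11.15, numpy 2.4.6 and pandas 2.3.3 were used.

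The members were fixed by their labels, though earlier results of these data were known. The 35 gene lists and the thresholds were chosen with those results known, and 2 further lists after seeing the data. Genes named are the 15 largest called differences per direction with an established symbol, up to 4 called members per list and direction, a fixed set of stage markers, and others said to be chosen after their values were seen. Alternatives were other scalings, pseudocounts, filters, thresholds, leaving out each library, removal of a trend on gene span and level, and a shorter motif core; protein-coding genes alone and the separate ES cells in place of the LIF cells were added after seeing the data. Knockout libraries of the same tables and the ChIP libraries were not used. A few called genes are not reported here by name.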

Additional observations from a re-analysis of the deposited data

How the results depend on the processing

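The 4 counts of called and switched genes and the called members of the streak, naive and LIF lists were recomputed under 15 to 18 alternatives each, and none reversed. Scaling to the same summed FPKM gave 196 genes higher and 838 lower. A pseudocount of 0.1 FPKM gave 594 and 943, one of 5 FPKM gave 105 and 210 with 7 LIF and Stat3 members lower, and a difference of at least 1 gave 1622 and 2130. Limits of 0.5 and 5 FPKM gave 34 genes on and 46 off, and limits of 1 and 2 FPKM gave 195 and 303. With the separate ES cells in place of the LIF cells, 492 genes were higher and 844 lower, and 118 switched on and 170 off. Of these, 173, 373, 31 and 73 were the same genes as against LIF. Leaving out each library in turn gave 307 to 338 higher, 555 to 577 lower, 66 to 76 on and 110 to 122 off, with 11 streak, 18 naive and 11 LIF and Stat3 members in every case. The other 103 recomputed values of these results stayed within 1.5 times the main count. The 37 called genes followed singly kept their sign in each of the 14 alternatives run for them. The 30 leading genes stayed called in each of 20, except Halr1 among protein-coding genes alone, since it is noncoding. Leaving out the filter, the smaller difference and the changed limits for switching could not remove a call. The leading genes were also chosen for their large differences, so most of this outcome was fixed in advance. No paired analysis was possible because the comparison comes from no test and no label pairs libraries across the separate tables. Equal replicate numbers are not said to mark a shared culture. Unknown depth limits the low values: no interval can be set on a gene listed at 0, and the LIF level of a gene switched on carries no counting error.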

Other observations

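A list of 38 interferon response and antigen presentation genes was drawn up after the data had been seen, so its counts only describe it. Of 25 members measured, 8 were called higher and none lower, with a median difference of 1.44. Psmb8, a subunit of the immunoproteasome, measured 29.8, 29.5 and 30.8 FPKM under Wnt3a and activin A and 0.902, 1.23 and 0.787 FPKM in LIF, in a locus it shares with another measured gene. Isg15, a ubiquitin-like interferon-induced modifier, switched on at 8.85, 8.31 and 6.21 FPKM under Wnt3a and activin A against 0.0668, 0.457 and 0 FPKM in LIF. Irgm1, an immunity-related GTPase gene, also switched on, with 12.6, 11.3 and 12.8 FPKM under Wnt3a and activin A and 0.88, 0.855 and 0.686 FPKM in LIF. Gbp2, a guanylate-binding protein gene, measured 20.7, 20.4 and 19 FPKM under Wnt3a and activin A and 1.86, 1.64 and 1.48 FPKM in LIF, but 16.9, 15.5 and 17 FPKM in the separate ES cells. Against those cells 5 members were called higher and the median of the list was 0.71.

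A second list of the same kind held 40 genes of meiosis, the oocyte and the piRNA pathway. Of 28 measured, 18 were called lower, 1 was called higher and 10 switched off, with a median of -2.36; against the separate ES cells the median was -2.53. Khdc3 and Ooep, members of the maternal complex of the oocyte, had means of 0.0811 and 0.443 FPKM under Wnt3a and activin A and 22.6 and 25.7 FPKM in LIF. Tex19.1, which restrains retrotransposons in germ cells, measured 3.44, 3.16 and 2.76 FPKM under Wnt3a and activin A and 77, 72.7 and 74.7 FPKM in LIF. Hsf2bp, which acts in meiotic recombination, measured 1.9, 2.55 and 2.16 FPKM under Wnt3a and activin A and 61.8, 68.1 and 61.2 FPKM in LIF. Tdrd5, a Tudor gene of the piRNA pathway, went the other way, with 49.1, 47.7 and 62 FPKM under Wnt3a and activin A and 8.5, 3.5 and 6.87 FPKM in LIF.

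The 7 measured mitochondrially encoded genes had a median difference of 1.02 against LIF and of -0.69 against the separate ES cells, and none was called against LIF. The first value was 0.12 with the trend on span and level removed and 0.46 with quantile normalization.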
